A study of Mus musculus with 55 samples.

Results

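Islets of mice that lack Eed in β cells (βEedKO) were compared between 25 and 8 weeks of age, to ask which genes change inside the mutant islet while the animals progress from normal glucose tolerance to diabetes. The comparison took the 5 bulk RNA-seq libraries labelled Eed -/-, 2 at 25 weeks (replicates 2 and 3) and 3 at 8 weeks (replicates 1, 4 and 5), of 55 samples in the series. The 6 wild-type libraries, 3 at each age, gave the change with age in the same assay, so that 11 libraries entered the fit. All groups were whole islets of male C57B6/J mice, hand picked after collagenase digestion and kept in medium before RNA was taken. The Cre transgene (RIP-cre) is driven by an insulin promoter, so Eed was deleted in β cells while the other cells of the islet kept the gene. By the study's methods the libraries are biological replicates, and each older βEedKO library pooled islets of several animals while the others held fewer animals each, so that the groups also differ in how far animals were averaged.

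Eed is a core subunit of Polycomb repressive complex 2 (PRC2), which places methyl groups on lysine 27 of histone H3. The trimethylated form, H3K27me3, marks genes of other lineages and of the embryo that a differentiated cell keeps silent, and many of these genes also carry the activating mark H3K4me3, a combination called bivalent. β cells are the insulin-secreting cells of the islet, and their mature state rests on transcription factors such as Pdx1, Nkx6-1 and Mafa and on a set of genes for glucose sensing, insulin storage and release.

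Promoters of 6 genes on which the results turn are printed from RefSeq (GRCm38.p6), each from 250 bases before to 50 bases after the start, 5′ to 3′, with CpG dinucleotides in capitals. Gata2, Slc32a1 and Cck were higher in βEedKO islets at 25 weeks and start in state M, the bivalent chromatin state of wild-type islets. Ucn3 and Prss53 were lower and start in states B and A, of which A is the active state, and Prss1, a trypsinogen, was higher and starts in state P.
Gata2 promoter, chr6:88193641-88193940, plus strand: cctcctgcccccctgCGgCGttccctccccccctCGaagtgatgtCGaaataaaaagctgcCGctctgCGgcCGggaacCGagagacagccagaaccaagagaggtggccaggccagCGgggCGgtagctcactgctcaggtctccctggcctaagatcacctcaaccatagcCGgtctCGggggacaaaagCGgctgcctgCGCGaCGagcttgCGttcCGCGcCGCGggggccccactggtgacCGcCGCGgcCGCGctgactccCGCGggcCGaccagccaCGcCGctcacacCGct
Slc32a1 promoter, chr2:158610508-158610807, plus strand: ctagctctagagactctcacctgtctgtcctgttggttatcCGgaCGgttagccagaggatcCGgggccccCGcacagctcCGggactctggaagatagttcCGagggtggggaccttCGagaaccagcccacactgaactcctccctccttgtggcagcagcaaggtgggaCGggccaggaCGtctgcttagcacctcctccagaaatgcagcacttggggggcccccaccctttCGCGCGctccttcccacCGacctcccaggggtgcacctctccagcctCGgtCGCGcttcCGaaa
Cck promoter, chr9:121495645-121495944, minus strand: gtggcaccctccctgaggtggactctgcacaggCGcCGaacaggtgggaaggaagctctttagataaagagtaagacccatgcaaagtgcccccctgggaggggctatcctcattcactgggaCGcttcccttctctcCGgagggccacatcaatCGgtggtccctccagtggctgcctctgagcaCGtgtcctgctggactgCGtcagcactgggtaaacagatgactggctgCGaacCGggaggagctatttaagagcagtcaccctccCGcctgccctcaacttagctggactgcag
Ucn3 promoter, chr13:3945300-3945599, minus strand: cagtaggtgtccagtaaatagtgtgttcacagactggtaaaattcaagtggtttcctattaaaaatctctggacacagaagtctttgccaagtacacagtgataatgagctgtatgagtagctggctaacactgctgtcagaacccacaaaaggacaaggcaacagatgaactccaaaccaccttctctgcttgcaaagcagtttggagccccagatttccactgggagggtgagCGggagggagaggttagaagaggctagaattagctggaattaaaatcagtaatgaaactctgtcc
Prss53 promoter, chr7:127890921-127891220, minus strand: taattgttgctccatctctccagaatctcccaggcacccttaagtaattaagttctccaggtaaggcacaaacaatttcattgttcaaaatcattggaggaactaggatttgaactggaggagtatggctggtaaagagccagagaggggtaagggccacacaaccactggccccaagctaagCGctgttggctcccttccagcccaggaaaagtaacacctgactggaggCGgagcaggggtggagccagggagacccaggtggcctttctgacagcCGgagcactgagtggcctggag
Prss1 promoter, chr6:41458680-41458979, plus strand: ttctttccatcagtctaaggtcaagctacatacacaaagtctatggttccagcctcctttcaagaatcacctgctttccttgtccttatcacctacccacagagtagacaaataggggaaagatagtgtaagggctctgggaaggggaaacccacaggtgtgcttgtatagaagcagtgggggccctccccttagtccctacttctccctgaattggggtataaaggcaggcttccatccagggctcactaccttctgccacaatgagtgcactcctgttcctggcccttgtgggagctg
The 3 bivalent promoters held 32, 17 and 10 CpG dinucleotides, those of Ucn3 and Prss53 held 1 and 3, and that of Prss1 held 0. Across the 12883 tested genes with a matched promoter the median was 19. The 6 promoters do not stand for their sets. Among genes with a matched promoter the median was 13 in state M and 25 in state A. It was 13 for genes that were higher and 17 for genes that were lower. A promoter was matched for 135 of the 190 genes that were higher at 25 weeks and for 72 of the 91 that were lower. These shares, 71.1% and 79.1%, were too low for a comparison of promoter composition between the sets, which is void.

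Total counts ran from 11825016 to 19078305 in the βEedKO libraries and from 4645393 to 18862300 in wild type. Levels are given as CPM, counts scaled to a common library size by TMM, the factor that edgeR sets from the bulk of genes. βEedKO replicate 2 at 25 weeks stood apart: 29 acinar cell markers, the genes of digestive enzymes made by the exocrine pancreas, took 45.9% of its counts, against 2.87% in replicate 3 and 3.96% to 7% at 8 weeks. In wild type they took 4.28% to 27.2%. At 8 weeks the summed level of 32 interferon-induced genes was 9183 and 10370 CPM in βEedKO replicates 4 and 5 and 241 CPM in replicate 1, with 306 and 508 CPM at 25 weeks. Wild-type replicates at 8 weeks split in the same way, at 292 CPM in replicate 1 and 6305 and 6792 CPM in the other libraries. The part of these differences in the results below was not tested, and values without single libraries are given where they end a call.

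In βEedKO islets 281 of 18685 genes tested (1.5%) changed between 8 and 25 weeks (edgeR, quasi-likelihood fit, Benjamini-Hochberg adjusted p below 0.05). The 190 that rose (1.02%) were of low level at 8 weeks: their median level was 1.17 CPM at 8 weeks and 16.1 CPM at 25 weeks, and their median log2 fold change was 3.81. The 91 that fell (0.487%) were well expressed, with medians of 85.1 and 26 CPM and a median log2 fold change of -1.69. Over all genes tested the median was 0.006. The same genes had median changes of 0.00 and 0.06 in wild type, where 0 genes were called by edgeR, 1898 had an unadjusted p under 0.05 and DESeq2 called 139. Of the 190 risen genes 94 (49.5%) were under 1 CPM in every wild-type library of either age, as were 11.3% of all genes tested. The filter keeps a gene that is low in wild type when a βEedKO group is high, so part of this contrast can follow from the filter. Of the 281 calls 158 were also made with scaling by library size alone and 97 with the 5 βEedKO libraries alone. Library size alone moved the split to 153 higher and 15 lower, with a median over all genes of 0.147. Without βEedKO replicate 2 or replicate 3 at 25 weeks, 36 and 53 genes were called. Without replicate 1, 4 or 5 at 8 weeks, 386, 76 and 82 were called. Without wild-type replicate 3 or 4 at 25 weeks 185 and 184 were called. Of the 281 genes, 27 kept their call under every alternative and every library left out, 20 of them higher and 7 lower.

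**Figure D1:**
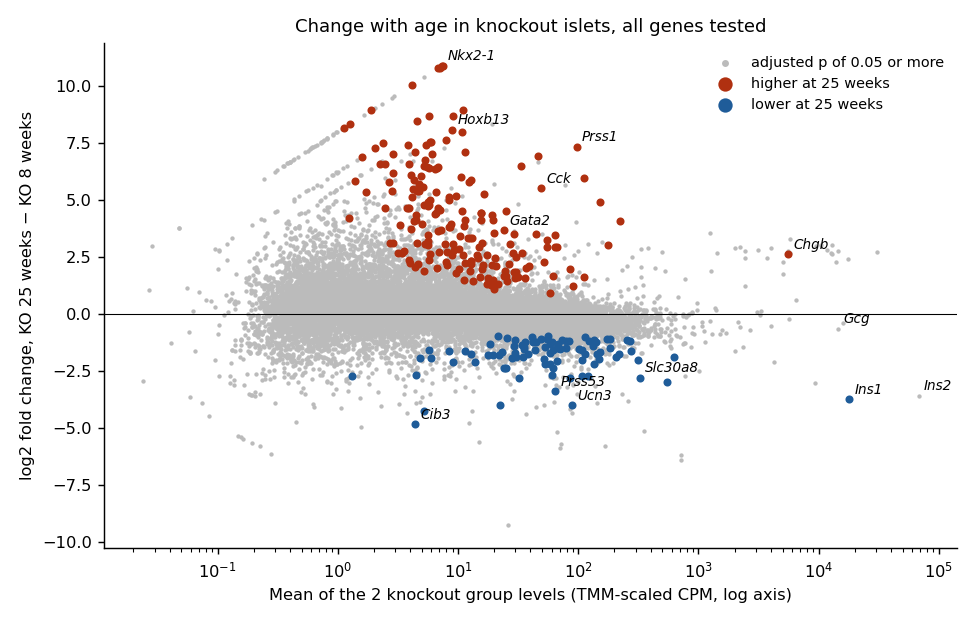
Each point is 1 of the genes tested, with its mean level over the groups of βEedKO libraries at 8 and 25 weeks on a log axis in TMM-scaled CPM, and its log2 fold change, 25 minus 8 weeks, on the vertical axis. The 190 genes that rose (red) spread upwards among genes of low level, and the 91 that fell (blue) lie among genes of moderate and high level.

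Genes that define the mature β cell fell. Ucn3 (ENSMUSG00000044988.7, chromosome 13), the peptide urocortin 3 and a marker of functional maturity, had 215, 124 and 163 CPM in the 3 libraries at 8 weeks and 11.2 and 9.69 CPM at 25 weeks. The groups did not overlap, as for 12.9% of all genes in this direction, and the log2 fold change was -3.998 ± 0.367 (SE; adjusted p = 0.00163, edgeR). Of the 8 mature β cell factors 3 fell and 0 rose: Ucn3, Pax6 and Nkx6-1. Their median log2 fold change was -1.56, against 0.006 over all genes and 0.43 for the list in wild type.

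Pax6, a paired-box factor needed in all endocrine cells of the islet, had 324, 232 and 254 CPM at 8 weeks and 75.7 and 113 CPM at 25 weeks, giving -1.52 ± 0.28 on the log2 scale (adjusted p = 0.0279, edgeR). Nkx6-1, which holds β cells apart from the other endocrine lineages, had 348, 106 and 105 CPM and then 21.95 and 34.5 CPM, giving -2.72 ± 0.56 (adjusted p = 0.0436, edgeR). Replicate 1 at 8 weeks was high for Nkx6-1, and both 25-week libraries lay below every younger one, as for 12.9% of all genes tested. The other factors did not pass the test: log2 fold changes were -2.75 ± 0.76 for Mafa, -1.60 ± 0.39 for Neurod1, -1.12 ± 0.33 for Pdx1, -0.90 ± 0.39 for Isl1 and -0.39 ± 0.42 for Nkx2-2. With 1 library left out 1 to 5 of the 8 were called, and DESeq2 called 6, and library size alone or the 5 βEedKO libraries alone left 1. Pax6 lost its call without βEedKO replicate 2 or 3 at 25 weeks (log2 fold changes of -1.26 and -1.84), replicate 4 or 5 at 8 weeks (-1.61 and -1.56), or wild-type replicate 4 at 8 or 25 weeks (-1.51 and -1.52). Nkx6-1 lost it without any 1 library except the replicate 1 of either genotype at 8 weeks, with values from -3.08 to -2.44.

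Insulin transcripts were lower in both 25-week libraries, and 1 of the 2 insulin genes passed the test. Ins1 had 35830, 23880 and 40560 CPM at 8 weeks and 2110 and 2878 CPM at 25 weeks, giving -3.74 ± 0.75 (adjusted p = 0.0397, edgeR). Ins2 had 125100, 93450 and 156900 CPM and then 9447 and 11290 CPM, a difference of -3.59 ± 0.97 that did not pass (adjusted p = 0.12, edgeR). Iapp, the amyloid peptide secreted with insulin, had 15110, 14040 and 20180 CPM and then 1911 and 2137 CPM (-3.02 ± 0.68, adjusted p = 0.0626, edgeR). For the 3 genes the groups did not overlap, as for 12.9% of all genes tested in this direction. Together they took 19.7%, 14.2% and 20.8% of counts at 8 weeks and 1.04% and 2.54% at 25 weeks, with 10.4% to 21.4% in wild type. In whole islets, fewer β cells and less RNA per β cell cannot be told apart. The call of Ins1 was lost without any 1 library other than wild-type replicate 1 at 8 weeks, with log2 fold changes from -3.99 to -3.54, and under library size alone, without a filter and with the 5 βEedKO libraries alone.

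Slc30a8, the zinc transporter that loads the insulin granule, had 752, 480.0 and 471 CPM at 8 weeks and 65.5 and 95.9 CPM at 25 weeks. It fell by 2.81 ± 0.35 on the log2 scale (adjusted p = 0.00466, edgeR) and lost its call without βEedKO replicate 2 at 25 weeks, where it fell by 2.57. Slc30a8 and Ins1 were the 2 of 10 insulin and prohormone processing genes that changed. The convertase Pcsk2 went from 2647, 3021 and 3428 CPM to 860.3 and 1067 CPM and did not pass (-1.65 ± 0.37, adjusted p = 0.0605, edgeR).

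Among 19 genes of glucose sensing and excitability, 2 fell and 0 rose. G6pc2, the islet glucose-6-phosphatase, had 1284, 785 and 832 CPM at 8 weeks and 96.9 and 145 CPM at 25 weeks, giving -2.999 ± 0.465 (adjusted p = 0.0141, edgeR). Trpm5, a calcium-activated cation channel, had 48.4, 32.9 and 44.9 CPM and then 1.80 and 3.37 CPM (-3.997 ± 0.442, adjusted p = 0.00332, edgeR). Both 25-week libraries lay far below the younger ones. The median of the list was -0.47. G6pc2 lost its call without βEedKO replicate 2 or 3 at 25 weeks (-2.74 and -3.32), and Trpm5 kept its call whichever library was left out.

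The 12 largest falls held further genes of the islet. Gjd2, which codes for connexin 36, the gap junction protein that couples β cells, had 253, 195 and 183 CPM at 8 weeks and 32.6 and 30.3 CPM at 25 weeks (-2.74 ± 0.26, adjusted p = 0.00163, edgeR). Prss53, a serine protease gene, had 96.9, 110.3 and 142 CPM and then 9.81 and 12.3 CPM (-3.39 ± 0.27, adjusted p = 0.00103, edgeR). Cib3, of a family of calcium-binding proteins, had 8.70, 5.95 and 10.6 CPM and then 0.30 and 0.27 CPM (-4.85 ± 0.51, adjusted p = 0.00309, edgeR). In these genes the libraries of each age lay close together compared with the gap between ages. Log2 fold changes were -2.81 ± 0.28 for Fam151a, -2.83 ± 0.39 for Ppp1r1a, an inhibitor of protein phosphatase 1, -4.25 ± 0.57 for T2 and -2.75 ± 0.56 for Prr29, with adjusted p from 0.00194 to 0.0405 (edgeR). Gjd2, Prss53, Cib3 and Fam151a kept their calls whichever library was left out. Ppp1r1a lost its call without βEedKO replicate 2 or 3 at 25 weeks (-2.86 and -2.80), as did T2 (-4.28 and -4.22), and Prr29 lost it without any of 8 of the 11 libraries, the exceptions being replicate 1 of either genotype at 8 weeks and the older wild-type replicate 2, with values from -3.25 to -2.32.

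**Figure D2:**
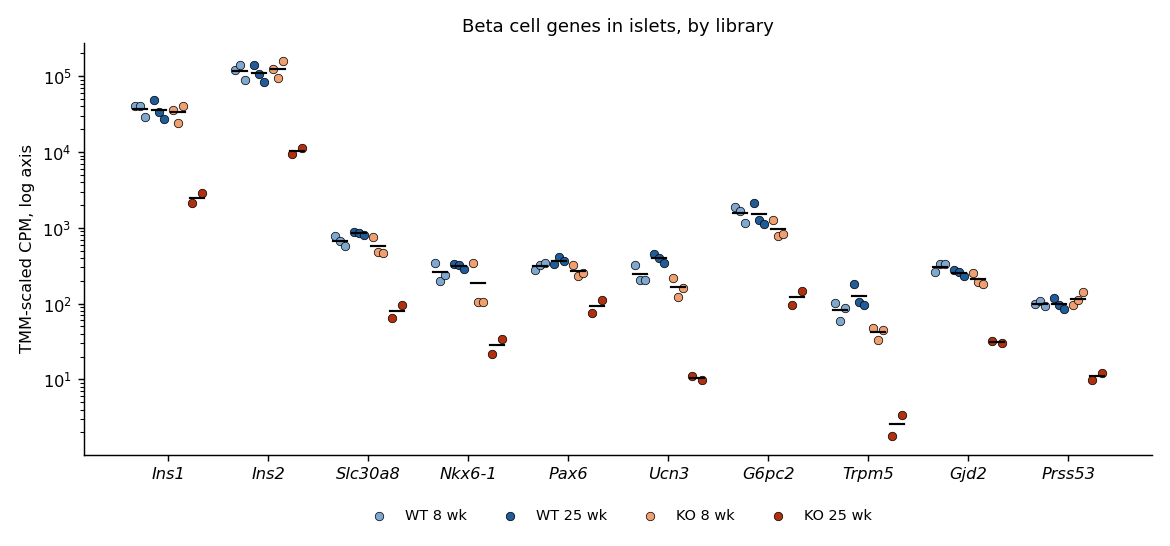
TMM-scaled CPM on a log axis for 10 β cell genes, 1 point per library, with a bar at the mean of wild-type (WT) and βEedKO (KO) islets at 8 and 25 weeks. The 2 βEedKO libraries at 25 weeks lie below every other library for each gene, for example at 11.2 and 9.69 CPM for Ucn3.

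The hormones of the other endocrine cells did not pass the test, and 0 of 12 genes of that list changed. Gcg, which codes for glucagon of α cells, had 12180, 15880 and 25250 CPM at 8 weeks and 11720 and 10890 CPM at 25 weeks (-0.65 ± 0.62). Sst, somatostatin of δ cells, differed by -0.85 ± 0.41, Ppy, pancreatic polypeptide, by -0.04 ± 0.53, and Pyy by 0.07 ± 0.41. The groups overlapped for Ppy and Pyy. Both older libraries lay below the younger ones for Gcg and Sst, as for 12.9% of all genes tested. In that list 3 genes had an unadjusted p under 0.05 and DESeq2 called 1 higher and 2 lower. The α cell gene Gc, a vitamin D binding protein, had 71.1, 95.9 and 101 CPM and then 264 and 253 CPM and did not pass (1.54 ± 0.37, adjusted p = 0.0762, edgeR).

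Granule proteins moved in both directions, with 1 of 11 higher and 2 lower and a median of -0.41. Chgb, chromogranin B of the secretory granule, rose from 1334, 1503 and 1918 CPM to 7770 and 11450 CPM, giving 2.60 ± 0.38 (adjusted p = 0.0106, edgeR). It was the most abundant gene that rose, and wild-type libraries held 880 to 1401 CPM. Scgn, the calcium sensor secretagogin, fell by 1.90 ± 0.31 (adjusted p = 0.0173, edgeR), and Sytl4, the granule docking protein granuphilin, fell by 1.02 ± 0.21 (adjusted p = 0.0456, edgeR). Chgb lost its call without βEedKO replicate 3 at 25 weeks (2.29) or replicate 4 at 8 weeks (2.57), and Scgn without replicate 2 or 3 at 25 weeks (-1.80 and -2.02) or replicate 5 at 8 weeks (-1.77). Sytl4 lost it without any of 9 of the 11 libraries, the exceptions being wild-type replicate 2 (older) and 1 (younger), with values from -1.18 to -0.89. Of 14 exocytosis genes 0 changed by edgeR, 3 had an unadjusted p under 0.05 and DESeq2 called 1.

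The largest rises were of transcription factors of other organs that had few or no reads at 8 weeks. Nkx2-1, a homeobox factor of thyroid, lung and forebrain, had 0 reads in the 3 libraries at 8 weeks and 13.5 and 16.3 CPM at 25 weeks, at least 260-fold higher when the group at 8 weeks is set to a floor of 3 reads (adjusted p = 0.00749, edgeR). On the same floor Zic2, a zinc finger factor of the neural tube, was at least 245-fold higher, Hoxd11 at least 146-fold, Emx2 at least 66.5-fold, Vax2os, a non-coding transcript beside Vax2, at least 240-fold, and Dlx6os1, a non-coding transcript of the Dlx5 and Dlx6 locus, at least 43.9-fold. Each of these was silent in every βEedKO library at 8 weeks and present in both at 25 weeks. Prss28, a serine protease gene, and Wfdc8, a protease inhibitor gene, were at least 259-fold and 39.1-fold higher. Wild-type libraries held at most 0.23 CPM of these 8 genes.

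Others had 1 to 3 reads in the 3 younger libraries together. Tfap2b, an AP-2 factor of kidney and neural crest, had 2 reads and then 823, at 25.3 and 18.8 CPM (a ratio of 550, 95% counting interval 152 to 4550, adjusted p = 0.00444, edgeR). Hoxa9 had 2 reads and then 728 (a ratio of 487, interval 134 to 4030), Hoxb13 3 and then 709 (316, interval 108 to 1540) and Lhx5 1 and then 370 reads (495, interval 88.3 to 19600). Ighg3, an immunoglobulin constant region expressed by plasma cells, had 1 read at 8 weeks and 17.5 and 5.39 CPM at 25 weeks, with 0 to 0.66 CPM in wild type. Plasma cells were not among the marker lists, and their part in this rise was not tested. Intervals and floors cover counting error only.

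Tfap2b, Hoxa9 and Hoxb13 kept their calls whichever library was left out. Nkx2-1 and Vax2os lost theirs without βEedKO replicate 2 or 3 at 25 weeks, where the fitted log2 fold changes were 11.02 and 10.64 for Nkx2-1 and 10.79 and 10.64 for Vax2os. Zic2, Prss28 and Lhx5 lost theirs without either of these or without replicate 4 or 5 at 8 weeks, at 10.52 to 10.96, 10.77 to 10.91 and 7.94 to 8.58. Hoxd11, Emx2, Ighg3, Dlx6os1 and Wfdc8 lost theirs without 8, 5, 6, 9 and 10 of the 11 libraries, at 9.15 to 10.57, 8.28 to 9.32, 7.55 to 10.53, 8.10 to 8.44 and 7.70 to 8.40. Fitted values of genes near 0 depend on the prior count.

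Other regulators had reads in every library at 8 weeks and rose by 25 weeks. Pitx1, a homeobox factor of the hindlimb and pituitary, had 0.47, 0.46 and 0.35 CPM at 8 weeks and 20.9 and 29.8 CPM at 25 weeks (5.85 ± 0.56, adjusted p = 0.00163, edgeR), with at most 0.08 CPM in any wild-type library. Six3, a factor of eye and forebrain, had 1.03, 0.71 and 0.71 CPM and then 34.9 and 29.1 CPM (5.27 ± 0.40, adjusted p = 0.004, edgeR), with 0 in the 6 wild-type libraries. Gata2, a zinc finger factor of blood and neuroendocrine cells (ENSMUSG00000015053.14, chromosome 6), was expressed in wild type as well: 4.07, 3.25 and 3.27 CPM at 8 weeks lay within the wild-type range of 2.47 to 4.39 CPM, and 40.9 and 48.8 CPM followed at 25 weeks (3.66 ± 0.30, adjusted p = 0.00103, edgeR). Gata3, of T cells, skin and kidney, went from 0.14, 0.20 and 0.09 CPM to 16.2 and 10.7 CPM (6.42 ± 0.71, adjusted p = 0.00332, edgeR). Pitx1, Gata2 and Gata3 kept their calls whichever library was left out, and Six3 lost its call without βEedKO replicate 2 at 25 weeks (5.13).

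**Figure D3:**
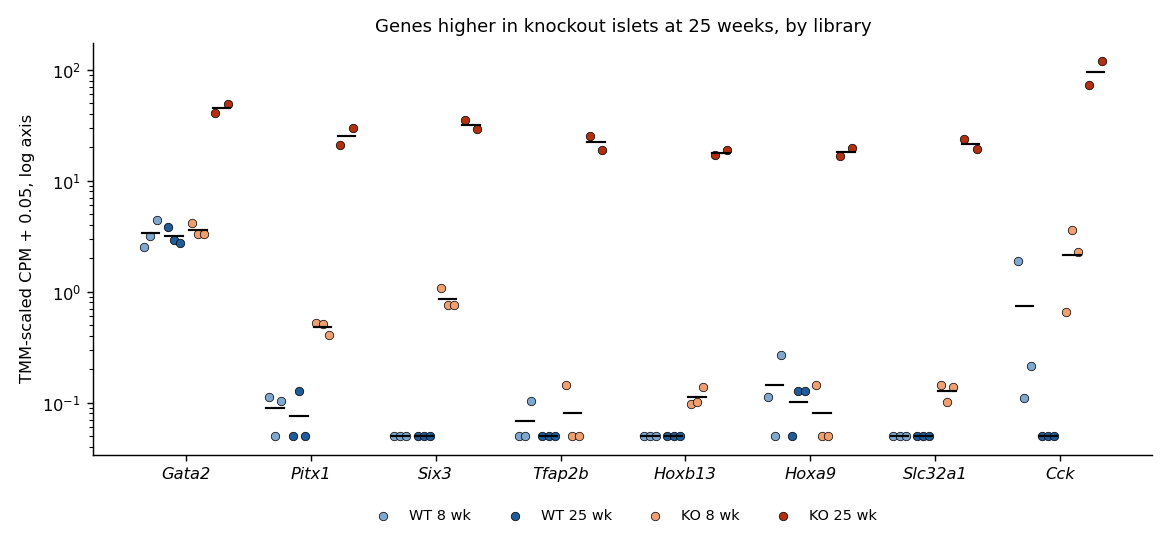
TMM-scaled CPM plus 0.05, on a log axis, for 8 genes that were higher in βEedKO islets at 25 weeks, 1 point per library with a bar at each group mean. The 2 βEedKO libraries at 25 weeks lie above all others for each gene, for example at 40.9 and 48.8 CPM for Gata2, and points at 0.05 are libraries with 0 reads.

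The Hox clusters, which pattern the body axis and are a classical Polycomb target, rose in summed level. Their 39 genes summed to 14.2, 9.46 and 10.7 CPM in the βEedKO libraries at 8 weeks and to 244 and 288 CPM at 25 weeks, against 2.76 to 10.8 CPM in wild type. Of the 39 genes 35 passed the filter on low counts, 22 of these through the 25-week βEedKO libraries alone (under 0.5 CPM in all others). Such genes could be called only higher, so that 0 falls say nothing of them. Of the 35 genes 17 rose (48.6%) and 0 fell, against 1.02% and 0.487% of all genes tested. The 17 were Hoxa9, Hoxa10 and Hoxa13, Hoxb7, Hoxb8, Hoxb9 and Hoxb13, Hoxc4, Hoxc6, Hoxc8, Hoxc9 and Hoxc10, and Hoxd4, Hoxd8, Hoxd10, Hoxd11 and Hoxd13, so that members of all the clusters rose. Without the filter 27 of the 39 rose. Hoxd8 had 5.47, 2.90 and 4.24 CPM and then 22.5 and 27.2 CPM (2.56 ± 0.38, adjusted p = 0.0106, edgeR), and Hoxb8 had 0.14, 0.05 and 0 CPM and then 5.02 and 6.39 CPM (6.16 ± 0.97, adjusted p = 0.0152, edgeR). In both genes the libraries of the 2 ages did not overlap, as for 16.2% of all genes tested in the higher direction. Without βEedKO replicate 2 or 3 at 25 weeks, or replicate 4 or 5 at 8 weeks, Hoxd8 lost its call (2.69, 2.41, 2.35 and 2.56), as did Hoxb8 (6.33, 5.98, 5.96 and 5.78).

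Of 120 other developmental regulators with homeobox, zinc finger, forkhead and T-box domains, 96 passed the filter, 41 of these through the 25-week βEedKO libraries alone. Such genes could again be called only higher. Of all genes tested 1.02% rose and 0.487% fell. Of the 96 regulators 0 fell and 27 rose (28.1%). They included Barx1, Emx2, En1, En2, Foxd1, Foxl1, Gata2, Gata3, Lhx2, Lhx5, Lhx9, Lmx1a, Nkx2-1, Nkx2-5, Pax1, Pax3, Pax9, Pitx1, Prrx1, Six3, Tbx5, Tbx15, Tbx18, Tfap2b, Zic1 and Zic2, factors of limb, heart, kidney, brain and other organs. The summed level of the list went from 228, 181 and 180 CPM at 8 weeks to 743 and 891 CPM at 25 weeks, with 107.5 to 148 CPM in wild type. Without βEedKO replicate 2 or 3 at 25 weeks, or 4 or 5 at 8 weeks, 4, 6, 8 and 11 of these regulators were called, and 2, 2, 2 and 3 Hox genes. The other libraries left out gave 24 to 33 and 12 to 20.

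Genes of neurotransmitter handling moved in both directions, with 2 higher and 1 lower of 15 tested. Slc32a1, the vesicular transporter of GABA and glycine, had 0.09, 0.05 and 0.09 CPM at 8 weeks and 23.6 and 19.3 CPM at 25 weeks (7.99 ± 0.54, adjusted p = 0.00335, edgeR), with 0 in all 6 wild-type libraries. Slc17a6, a vesicular glutamate transporter, had 3.69, 1.27 and 1.59 CPM and then 24.9 and 18.98 CPM (3.32 ± 0.63, adjusted p = 0.0451, edgeR). Gad1, which makes GABA, fell from 88.9, 92.1 and 79.3 CPM to 14.7 and 22.6 CPM (-2.22 ± 0.26, adjusted p = 0.00357, edgeR). Slc32a1 and Slc17a6 were higher and Gad1 was lower in both older libraries than in any younger one. Tph1, of serotonin synthesis, had 0.14, 1.68 and 0.71 CPM and then 6.74 and 23.9 CPM and did not pass (4.18 ± 0.96, adjusted p = 0.0666, edgeR). Slc32a1 kept its call whichever library was left out. Gad1 lost it without βEedKO replicate 2 at 25 weeks (-1.95). Slc17a6 lost it without 7 of the 11 libraries, which were both βEedKO libraries at 25 weeks, βEedKO replicates 4 and 5 at 8 weeks, wild-type replicates 3 and 4 at 8 weeks and replicate 4 at 25 weeks, with values from 3.04 to 3.95 over the 11.

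Of 12 markers of dedifferentiation 1 rose. Cck, the gut hormone cholecystokinin, had 0.61, 3.51 and 2.21 CPM at 8 weeks and 72.6 and 119 CPM at 25 weeks (5.51 ± 1.06, adjusted p = 0.046, edgeR), and wild-type libraries held 0 to 1.85 CPM. Its call was lost without any of 8 of the 11 libraries, kept without wild-type replicate 2 at 25 weeks, replicate 1 or replicate 3 at 8 weeks, and the value ran from 5.06 to 6.15. Aldh1a3, an aldehyde dehydrogenase of failing β cells, went the other way without passing the test: 44.0, 29.0 and 24.3 CPM at 8 weeks, 12.8 and 27.1 CPM at 25 weeks (-0.70 ± 0.44, adjusted p = 0.5, edgeR), and 1.36 to 5.57 CPM in wild type. Gast, gastrin, had at most 1.06 CPM in any library (0.43 ± 0.89). Sox9 had 6.73, 8.03 and 8.74 CPM and then 20.8 and 25.8 CPM, and Npy 16.8, 42.6 and 65.2 CPM and then 4.19 and 10.6 CPM. Sox9, Npy and Slc5a10 did not pass (1.57 ± 0.59, -2.48 ± 1.07 and 3.07 ± 0.91, adjusted p = 0.264, 0.335 and 0.154, edgeR). In the list 4 genes had an unadjusted p under 0.05 (edgeR), and DESeq2 called 2 higher and 0 lower.

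Of 25 genes that β cells normally keep low (disallowed genes) 1 rose, and the median was 1.06. The log2 fold change was positive for 22 and negative for 3 of them. Unadjusted p was under 0.05 for 11 (edgeR), and DESeq2 called 5 higher. Hk1, the high-affinity hexokinase, had 8.93, 15.5 and 14.0 CPM and then 41.1 and 49.8 CPM (1.83 ± 0.32, adjusted p = 0.023, edgeR). Tgm2, a transglutaminase, had 16.9, 17.4 and 14.0 CPM and then 66.8 and 63.7 CPM and did not pass (2.02 ± 0.53, adjusted p = 0.108, edgeR). Hk1 was also the 1 of 22 glycolysis genes called, and lost its call without βEedKO replicate 2 or 3 at 25 weeks (1.96 and 1.67) or replicate 4 or 5 at 8 weeks (2.00 and 1.89).

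Among 41 Wnt pathway genes, 32 were tested, and 2 rose and 2 fell. Wnt4, a ligand of the islet, fell from 220, 193 and 247 CPM to 51.9 and 77.2 CPM (-1.77 ± 0.25, adjusted p = 0.0103, edgeR), and Frzb, a secreted Wnt antagonist, from 138, 80.0 and 90.4 CPM to 19.4 and 20.6 CPM (-2.36 ± 0.33, adjusted p = 0.00799, edgeR). The receptors Fzd1 and Fzd8 rose by 2.16 ± 0.42 and 1.47 ± 0.31 (adjusted p = 0.0339 and 0.0465, edgeR). Gdf11, a ligand of the TGF-β family, rose by 1.86 ± 0.37 (adjusted p = 0.0379, edgeR), as the 1 of 24 tested genes of its list. Wnt4 lost its call without βEedKO replicate 2 at 25 weeks (-1.51), and Frzb without replicate 2 or 3 (-2.32 and -2.41). Fzd1, Fzd8 and Gdf11 lost theirs without 8, 9 and 8 of the 11 libraries, at 2.01 to 2.43, 1.35 to 1.57 and 1.76 to 1.93. Ccnd2, cyclin D2 of the β cell cycle, fell by 1.90 ± 0.35 (adjusted p = 0.0268, edgeR), the 1 of 30 cell cycle genes called. It lost its call without 6 of the 11 libraries, at -2.27 to -1.62.

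The trypsinogen genes Prss1, Gm10334, Gm5771 and Prss3 rose, while the acinar list as a whole split between the 2 older libraries. Prss1 (chromosome 6) had 0.80, 1.27 and 1.59 CPM at 8 weeks and 228 and 158 CPM at 25 weeks (7.33 ± 0.68, adjusted p = 0.00163, edgeR). Its copies Gm10334, Gm5771 and Prss3 went from 2.15 to 4.47, 3.51 to 15.8 and 14.2 to 36.1 CPM to 283 and 160, 371 and 221, and 602 and 231 CPM, rises of 5.95 ± 0.72, 4.90 ± 0.73 and 4.06 ± 0.75 (adjusted p = 0.004, 0.0113 and 0.0279, edgeR). These genes are near-identical copies of 1 family, so reads could be shared between them and the split among them is uncertain. Wild-type islets held them at 5.47 to 17.9 CPM (Prss1), 23.8 to 59.4 (Gm10334), 127 to 207 (Gm5771) and 214 to 402 CPM (Prss3) at 8 weeks, and at 0.23 to 1.48, 1.30 to 8.37, 1.10 to 5.91 and 10.7 to 77.0 CPM at 25 weeks.

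Of 29 acinar markers 3 rose, Prss1, Gm5771 and Prss3. The list also holds the trypsinogen genes Prss2, Try4, Try5 and Try10. These were not called, and their libraries overlapped between the 2 ages. The fitted log2 fold change was positive for all 29, with a median of 2.78. Unadjusted p was under 0.05 for 15 (edgeR), and DESeq2 called 3. The list summed to 595600 CPM in replicate 2 and 18430 CPM in replicate 3 at 25 weeks, and to 36730 to 62430 CPM at 8 weeks, so that replicate 3 held fewer acinar reads than any younger βEedKO library. Carboxypeptidase A1 (Cpa1), chosen after its values were seen, had 39870 and 1174 CPM at 25 weeks and 2185 to 3810 CPM at 8 weeks. Without replicate 2, the library rich in acinar reads, Prss1 and Gm10334 kept their calls, at log2 fold changes between 7.03 and 7.56 and between 5.47 and 6.29 over all libraries left out. Gm5771 lost its call without replicate 2 at 25 weeks (4.47) or replicate 5 at 8 weeks (4.94), and Prss3 without replicate 2 or 3 at 25 weeks (3.20 and 4.58) or any of the 3 libraries at 8 weeks (3.78, 4.42 and 4.05). The Reg genes, secreted proteins of acinar and injured islet tissue, summed to 13350 and 628 CPM at 25 weeks and 732 to 2067 CPM at 8 weeks, and 0 of 7 changed by edgeR, 1 at an unadjusted p under 0.05 and 1 by DESeq2.

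**Figure D4:**
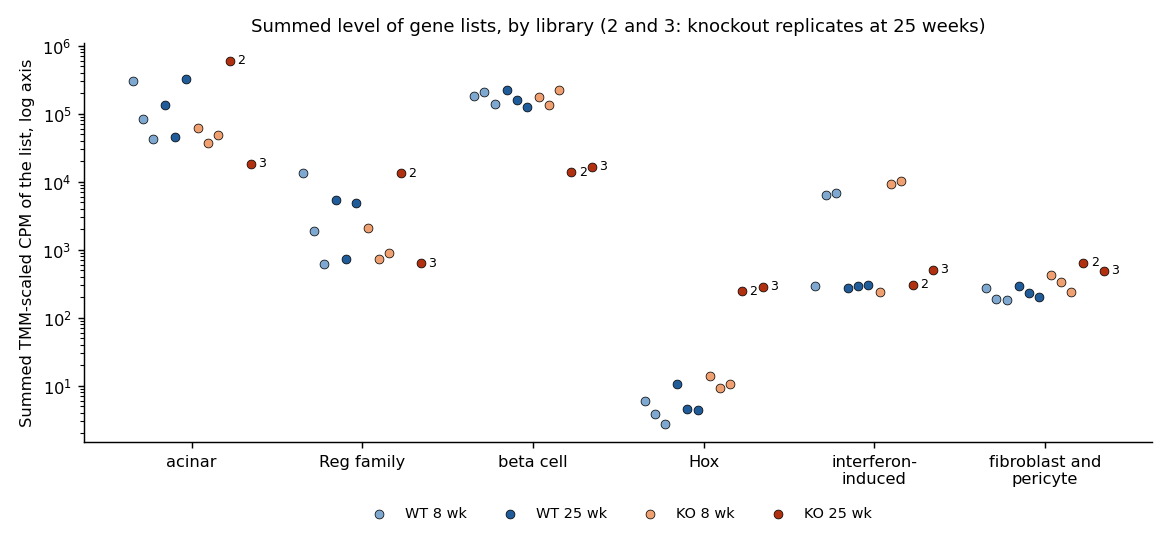
Summed TMM-scaled CPM of 6 gene lists, on a log axis, with 1 point per library of wild-type (WT) and βEedKO (KO) islets. The numbers mark replicates 2 and 3 of βEedKO islets at 25 weeks. The acinar and Reg lists differ between these 2 libraries (595600 and 18430 CPM for the acinar list), the β cell list is low in both, the Hox list is high in both, and the interferon-induced genes split the libraries at 8 weeks.

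Few markers of the other cells of the preparation were called. Of 15 fibroblast, stellate cell and pericyte markers 2 rose, the matrix proteoglycans Dcn and Lum, by 2.91 ± 0.47 and 2.85 ± 0.53 (adjusted p = 0.0164 and 0.0293, edgeR). The list summed to 642 and 489 CPM at 25 weeks and 238 to 422 CPM at 8 weeks. Dcn went from 12.8, 17.5 and 16.7 CPM to 154 and 80.9 CPM, and from 8.15, 11.3 and 4.88 CPM to 52.0, 19.6 and 24.3 CPM in wild type. Dcn lost its call without βEedKO replicate 2 at 25 weeks (2.37) or replicates 4 or 5 at 8 weeks (3.0 and 2.96), and Lum without 7 of the 11 libraries (2.13 to 3.32 over the 11). Of 16 duct markers 1 fell, the keratin Krt7 (-1.09 ± 0.22, adjusted p = 0.0428, edgeR), which lost its call without 9 of the 11 libraries (-1.21 to -0.98). Of 16 endothelial, 17 macrophage, 16 lymphocyte, 9 Schwann cell, 7 α cell, 4 δ cell and 3 PP cell markers 0 were called by edgeR. Unadjusted p was under 0.05 for 5, 2, 6, 2, 2, 1 and 0 of them, and DESeq2 called 3 endothelial, 2 lymphocyte, 1 Schwann cell, 2 α cell and 1 δ cell markers. Median log2 fold changes, in the same order, were 0.19, 0.21, 2.17, 1.54, 0.36, -0.73 and 0.07, against 0.006 over all genes. In wild type they were 0.25, 0.79, 0.77, 0.73, -0.97, -0.66 and -0.57. The change was positive for 15 of 16 lymphocyte and 9 of 9 Schwann cell markers. Summed levels at 8 and 25 weeks were 497 to 585 and 546 and 707 CPM for endothelial cells, 140.2 to 546 and 279 and 653 CPM for macrophages, 37.4 to 51.4 and 65.3 and 100.2 CPM for lymphocytes and 24.3 to 58.3 and 66.6 and 132 CPM for Schwann cells. Of the 8 β cell markers 4 fell, which are Ins1, Ucn3, Nkx6-1 and Slc30a8.

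Eed itself was not called. The gene had 14.7, 13.6 and 15.1 CPM at 8 weeks and 15.4 and 13.7 CPM at 25 weeks in βEedKO islets (0.00 ± 0.24), against 19.4 to 33.8 CPM in wild type. Cells other than β cells kept Eed, and the source of the remaining reads was not tested. Of 12 PRC2, 19 PRC1 and 14 H3K4 methylase and H3K27 demethylase genes 0 were called, by edgeR or DESeq2, with medians of 0.01, 0.00 and 0.24, and 2, 2 and 0 had an unadjusted p under 0.05. The cell cycle inhibitor Cdkn2a, a known PRC2 target, had 11.3, 8.74 and 13.5 CPM at 8 weeks and 19.1 and 24.5 CPM at 25 weeks (0.97 ± 0.36, adjusted p = 0.257, edgeR), with 0.23 to 0.66 CPM in wild type.

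Most stress and metabolic lists gave no calls. Of 12 glucose-induced genes 1 fell, the G6pc2 described above. Of 24 unfolded protein response genes 0 changed, by edgeR or DESeq2, with a median of -0.72, against -0.52 in wild type, and 2 had an unadjusted p under 0.05. Of 77 tested respiratory chain genes, 21 of sterol and fatty acid synthesis, 18 immediate-early genes and 15 of the hedgehog pathway 0 were called by edgeR, with medians of -0.30, -0.60, -0.20 and 0.72, and DESeq2 called 2 hedgehog genes and 0 of the others. Unadjusted p was under 0.05 for 3, 0, 1 and 3 of them, in the same order. Of the 32 interferon-induced genes 0 were called, although 27 had an unadjusted p under 0.05, DESeq2 called 13 lower, and the median was -3.13 against -2.86 in wild type. Mx1, an interferon-induced GTPase, had 8.75, 179 and 205 CPM at 8 weeks and 2.55 and 4.57 CPM at 25 weeks (-5.18 ± 1.63, adjusted p = 0.176, edgeR), which follows the split among the libraries at 8 weeks. Txnip, induced by glucose, had 506, 85.8 and 84.6 CPM at 8 weeks and 1294 and 371 CPM at 25 weeks (1.89 ± 0.89, adjusted p = 0.37, edgeR). In these genes replicate 1 at 8 weeks lay apart from replicates 4 and 5.

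Library size alone ended the calls of Ccnd2, Frzb, Fzd8, G6pc2, Gad1, Gdf11, Ins1, Krt7, Nkx6-1, Pax6, Prr29, Scgn, Sytl4, Wfdc8 and Wnt4. The 5 βEedKO libraries alone ended those of these genes other than Gad1, and of Chgb, Dlx6os1, Emx2, Fzd1, En2, Hk1, Hoxa10, Hoxa13, Hoxb8, Hoxc8, Hoxc9, Hoxd4, Hoxd8, Hoxd10, Hoxd11, Lhx2, Lhx9, Lum, Prrx1, Prss3, Slc17a6, Slc30a8, Tbx15 and Tbx18. Calls ended with all 16 bulk libraries for Dcn, Hoxc6, Lum, Tbx5 and Zic1, without the filter for Ins1, Krt7, Prr29 and Sytl4, with DESeq2 for Hoxa10, Hoxa13, Hoxd10 and Hoxd11 and with RLE size factors for Sytl4.

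Whether the change with age differed from that in wild type was tested directly. The difference between βEedKO and wild-type change passed for 37 of 18685 genes (0.198%), 17 positive (0.091%) and 20 negative (0.107%). Of the 37, 36 had also changed within βEedKO islets. The exception, Barhl1, a homeobox factor named after its values were seen, had 12.4, 6.10 and 6.80 CPM and then 2.70 and 4.49 CPM in βEedKO islets, while wild type went from 0.18 to 0.74 CPM to 7.04 to 9.07 CPM. With the replicate number within age as a block the difference passed for 2 genes, Ucn3 and Prss1. Without βEedKO replicate 2 or 3 at 25 weeks it passed for 10 and 14 genes, and with any other library left out for 15 to 40.

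Ucn3 fell in βEedKO islets, while wild-type islets had 324, 203 and 205 CPM at 8 weeks and 452, 405 and 348 CPM at 25 weeks. The wild-type change of 0.72 ± 0.27 did not pass (adjusted p = 0.489, edgeR). The difference in change was -4.72 ± 0.45 for Ucn3 (adjusted p = 0.00466, edgeR). The difference was -3.37 ± 0.33 for Prss53, -5.44 ± 0.60 for Cib3, -4.63 ± 0.54 for Trpm5, -3.02 ± 0.34 for Fam151a and -2.72 ± 0.33 for Gad1, all at an adjusted p of 0.00466 to 0.00967 (edgeR). On the positive side it was 10.87 ± 0.91 for Prss1, 10.80 ± 1.05 for Gm5771, 8.72 ± 0.95 for Gm10334, 3.77 ± 0.40 for Gata2, 4.22 ± 0.47 for AW551984 and 7.60 ± 0.78 for C4bp (adjusted p of 0.00373 to 0.00579, edgeR). For Prss1 and Gm5771 the wild-type levels were lower at 25 than at 8 weeks, which did not pass the test (log2 fold changes of -3.54 and -5.90, adjusted p = 0.227 and 0.0978, edgeR). C4bp, a complement regulator, had 2.25, 1.98 and 1.501 CPM and then 12.5 and 19.8 CPM in βEedKO islets, and 1.55 to 3.46 and then 0 to 0.15 CPM in wild type. Its change within βEedKO islets (3.07 ± 0.48) lost its call without βEedKO replicate 2 or 3 at 25 weeks (3.36 and 2.70) or 4 or 5 at 8 weeks (3.10 and 2.93). For genes such as Ins1, Nkx6-1, Pax6 and Cck the difference did not pass (adjusted p = 0.185, 0.163, 0.108 and 0.127, edgeR).

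The chromatin state at the gene start in wild-type islets, a readout of histone marks, RNA polymerase and DNA methylation, took no part in choosing the libraries, and it was set beside the genes that rose and fell. The states are letters A to X that the authors' segmentation gives to bins of 200 bp. Of the 190 genes that rose, 85 (44.7%) started in state M and 60 (31.6%) in state L, the bivalent and Polycomb-silenced states. State M held 902 tested genes, of which 9.42% rose (exact 95% binomial interval 7.6% to 11.5%) and 0% fell, which allows up to 0.408% by the same interval, against 1.02% and 0.487% of all genes tested. These genes had a median of 1.24 CPM in βEedKO islets at 8 weeks, against 10.5 CPM over all genes and 85.1 CPM for genes that fell. Genes of such low level can hardly be called lower, so no conclusion is drawn from the 0%. In state L 2.39% of 2512 genes rose (1.83% to 3.06%), and 11 fell (0.438%, interval 0.219% to 0.782%), near the share over all genes. States M and L held 4.83% and 13.4% of all genes tested. Genes are not independent, and these intervals cover counting error only.

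Of the 91 genes that fell, 37 (40.7%) started in state A and 18 (19.8%) in state B, which held 35% and 16.1% of all genes tested, and 11 (12.1%) in state L. State A, the active state, held 6533 tested genes, of which 0.566% fell (0.399% to 0.78%) and 0.0765% rose. In state B 0.598% fell (0.355% to 0.944%). Both intervals hold the 0.487% of all genes tested, so that the genes that fell lay near the background in these states. The median log2 fold change was 1.26 in state M, 0.43 in state L and -0.19 in state A, against 0.00, 0.00 and -0.08 in wild type. Since the filter keeps a gene when it is high in 1 group, the same was counted without it: of all 1877 counted genes in state M, 24.9%, 25.3% and 23.7% reached 1 CPM at 8 weeks in βEedKO islets and 39.4% and 40.2% at 25 weeks, against 16.1% to 22.7% in wild type. The share of state A genes at 1 CPM stayed between 89.1% and 90.6% in all 11 libraries. DESeq2 called 173 state M genes higher and 190 state A genes lower. Without βEedKO replicate 2 or 3 at 25 weeks, or 4 or 5 at 8 weeks, 14, 18, 24 and 27 state M genes were called higher, and with any other library left out 67 to 98. The count of state A genes called lower was 4, 10, 13 and 10 without the same libraries, 72 without βEedKO replicate 1 at 8 weeks, and 20 to 56 without a wild-type library.

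**Figure D5:**
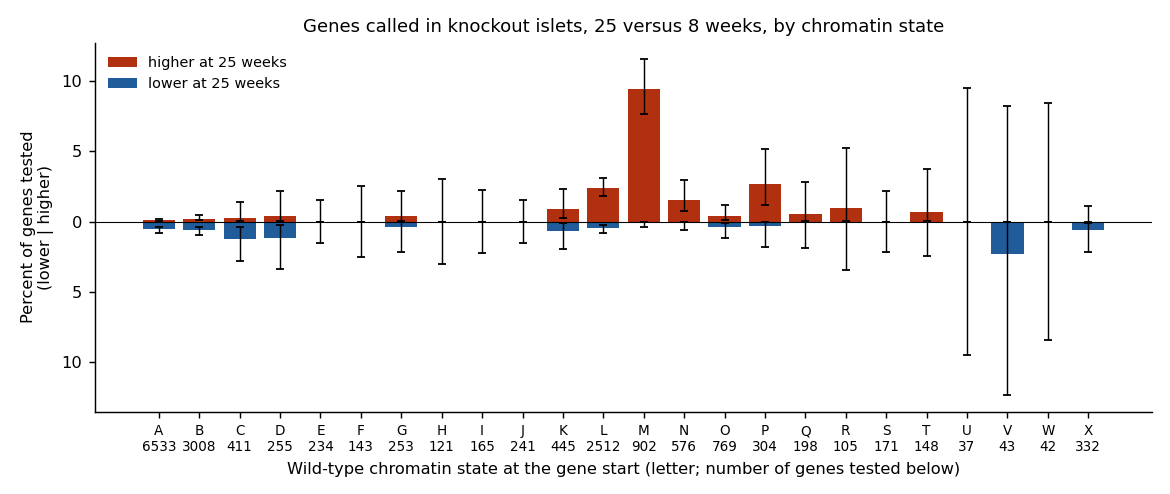
Percent of tested genes called higher (red, upward) or lower (blue, downward) in βEedKO islets at 25 weeks than at 8 weeks, for each wild-type chromatin state at the gene start, with exact 95% binomial intervals and the number of genes tested under each letter. State M has the highest share of risen genes, 9.42% of 902, and the shares of fallen genes in states A and B, 0.566% and 0.598%, lie near the 0.487% over all genes tested.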

How the data were processed

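Whole-islet RNA-seq counts of βEedKO and wild-type libraries at 8 and 25 weeks were analysed. Gene-level read counts, not normalized, were deposited by the authors, who made them with TopHat2 2.0.13 on GRCm38 and featureCounts of Subread 1.5.0-p1 on Gencode M9 models; whether strand was used is not given in the sources used here, so a gene and its antisense partner cannot be told apart. The deposited chromatin states are EpicSeg letters in 200 bp bins. No count column was left unused (0). Names and positions came from a later annotation of the same build, matched by identifier for 47224 of 47937 genes. Genes that share reads with near-identical copies are uncertain.

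Counts were fitted in R 4.3.3 with edgeR 4.0.16 (TMM, filterByExpr by group, 18685 genes, 4 groups, quasi-likelihood test, Benjamini-Hochberg adjustment, threshold 0.05); DESeq2 1.42.0 was an alternative. Each SE is |log2 fold change| divided by the root of edgeR's F. The fit was tested on simulated counts. Replicates differed by far more than sampling noise (lowest chi-square over its degrees of freedom, 35.5). The 2 βEedKO groups share no replicate number. Wild-type and βEedKO libraries of the same number and age had correlated deviations, at 0.535 and 0.247 at 8 weeks and 0.236 and 0.349 at 25 weeks. Pairs with different numbers at 8 weeks did so too: wild-type 3 and 4 with βEedKO 5, at 0.527 and 0.380. With 2 βEedKO libraries at 25 weeks, a correlation with 1 is the negative of that with the other. The main difference test was not paired, and the number within age entered as a block in an alternative fit only.

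The members and gene lists were chosen with earlier results of these data known. Genes were named by rule: the 12 largest rises and 12 largest falls among called genes with at least 1 CPM in a group, no overlap between groups and a symbol that is no predicted model; up to 4 genes of smallest p in each list; Eed, islet hormones, mature β cell factors, Cck, Gast and Aldh1a3; and the 6 genes of smallest adjusted p for the difference in each direction. Heterozygous libraries entered only an alternative fit. The single-cell and ChIP-seq files were not used here.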

Additional observations from a re-analysis of the deposited data

Results flagged for a closer look

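Among the named genes, 18 changed with age differently in βEedKO and wild-type islets by the test of the difference itself (edgeR). The difference in log2 change, βEedKO minus wild type, was positive for Prss1 (10.87), Gm5771 (10.80), Gm10334 (8.72), C4bp (7.60), Prss3 (6.99), AW551984 (4.22) and Gata2 (3.77). It was negative for Cib3 (-5.44), T2 (-5.06), Ucn3 (-4.72), Trpm5 (-4.63), Prss53 (-3.37), Slc30a8 (-3.14), Ppp1r1a (-3.07), Fam151a (-3.02), Frzb (-2.79), Gad1 (-2.72) and Gjd2 (-2.47). With the replicate number within age as a block, the difference passed for Prss1 and Ucn3 alone of the genes tested. For the 4 trypsinogen genes in this list the wild-type levels at 25 weeks lay below those at 8 weeks in every library. The groups hold 2 or 3 libraries, too few to test single libraries for standing apart.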

How the results depend on the processing

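Of 169 named genes 0 were counted as reversed, but this count does not show that every direction was stable. For genes such as Reg1, Reg2, Reg3d, Ptf1a, Ier2, Lyz2, Hhex and Eed, which did not pass the test, the 2 older βEedKO libraries disagreed. Replicate 2 at 25 weeks lay above the mean at 8 weeks and replicate 3 below it. For genes such as Ppy, Pyy, Cdkn2b and Egr2, which did not pass either, replicate 3 lay above that mean and replicate 2 below it. By these levels the direction of these genes depends on which older library is kept. Of 56 named genes that were called, 40 lost the call under at least 1 alternative, and 32 that were not called gained one. The number of genes called in βEedKO islets, 281, was 168 with library size alone, 960 with DESeq2, 473 with all 16 bulk libraries and 101 with the 5 βEedKO libraries alone, and ran from 36 to 386 with 1 library left out. In wild type, 0 genes became 1 with library size alone, 139 with DESeq2, 8 without the filter and 4 with all 16 libraries, and 0 to 5 with 1 library left out. The difference between the changes, 37 genes, became 11, 340, 73 and 90 under the same alternatives and 10 to 40 with 1 library left out. With the replicate block within age it passed for 2 genes. With the replicate block across ages, wild type alone gave 4252 genes; only replicates 3 and 4 occur at both ages and their deviations correlated at 0.042 and 0.120, so the numbers do not pair these libraries, and 1 residual degree of freedom remains. No paired analysis was possible for βEedKO islets because their 2 ages share no replicate number.

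The 3 mature β cell factors called became 1 with library size alone or the 5 βEedKO libraries alone and 6 with DESeq2, and 1 to 5 with 1 library left out. The 17 Hox genes became 27 without the filter and 8 with the 5 βEedKO libraries alone, and 2 to 20. The 27 other developmental regulators became 46 with DESeq2, and 4 to 33. The 85 state M genes that rose became 173 with DESeq2 and 55 with the 5 βEedKO libraries alone, and 14 to 98. The 37 state A genes that fell became 5 with library size alone, 190 with DESeq2, 106 with all 16 libraries and 4 with the 5 βEedKO libraries alone, and 4 to 72. Causes were not tested. With a 25-week replicate left out, the lone βEedKO library is assumed to vary like the other groups. An exact permutation test of 2 against 3 libraries cannot give a two-sided p below 0.1, so single values rest on the fit across genes.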
